A study of Homo sapiens with 12 samples.

Results

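PAX5, EBF1, TCF3, SPIB, POU2AF1, POU2F2, IRF4, IRF8, BCL6 and BACH2 are transcription regulators that build and hold the B cell state. They were followed by gene symbol in a table of RNA counts from Z-138, a human cell line derived from mantle cell lymphoma. All 10 had a row among the 13820 genes of the table, and 9 had enough counts to be tested, against 12602 genes tested in all. IRF8 did not, with 0 to 6 counts per library.

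EBF1 and the E protein TCF3 start the B lineage programme, and PAX5 then locks it in by switching on B cell genes and keeping other lineages silent. SPIB is an ETS factor that binds DNA together with IRF4 or IRF8. POU2F2, also called OCT2, binds the octamer sequence and recruits POU2AF1, a coactivator also known as OCA-B. BCL6 is the repressor of the germinal centre stage and BACH2 a repressor of plasma cell fate. Both hold down PRDM1, which encodes the repressor that ends the B cell programme.

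All cells received doxycycline. Their shRNA was either a control (SCR in the labels) or directed at SMARCA4, which encodes a motor subunit of SWI/SNF chromatin remodellers. Each population received DMSO or the pair of drugs ibrutinib, a BTK inhibitor, and venetoclax, a BCL2 inhibitor, at 3 µM each. This made 4 groups of 3 libraries: control DMSO, control drug, knockdown DMSO and knockdown drug. Each shRNA arm stands for 1 construct in 1 line, so lower SMARCA4 and anything else that the construct does cannot be told apart. Whether the 3 replicates of a group came from separate cultures is not in the labels, and p-values here reflect only how far these libraries scatter. RNA came from whole populations, in which fewer cells with a transcript and less transcript per cell cannot be told apart.

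Library totals ran from 7279503 to 10151679 counts, apart from knockdown DMSO replicate 3 with 22528537. The table column taken as control drug replicate 1 names no treatment and was matched by elimination, so the calls of factors and named genes in the comparisons that use it were also made without it. Among the factors no call changed, and among the listed genes the calls of ID1 for the drug in control cells and HMOX1 for the knockdown under drug were lost. SMARCA4 stood at 555 to 599 CPM (counts scaled to library size) in control DMSO and at 159 to 177 CPM in knockdown DMSO libraries. Under drug it stood at 588 to 642 and at 167 to 184 CPM. The B cell identity of the line showed in 6 of 7 marker genes with a row, at a summed 1835 to 2011 CPM in control DMSO and 1335 to 1345 CPM in knockdown DMSO. Most of the sum was CD74, with means of 1467 and 1161 CPM, so the sum says little of the other markers. By edgeR 5 of the 6 were lower for the knockdown in DMSO (adjusted p under 0.05), where 31.3% of all genes tested passed in either direction. Mean MS4A1 went from 187 to 73.0 CPM, and mean CD37 was 1.97 and 2.33 CPM. No row existed for any of 6 monocyte and macrophage markers. The 3 T and NK cell markers with a row, of 10, summed to 18.1 to 19.7 CPM in control DMSO and 1.75 to 3.15 CPM in knockdown DMSO libraries, and CD3D, CD3E and CD8A had no row. They moved with the shRNA, and their part in the results below was not tested.

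Promoters are shown for 3 of the factors whose levels changed, as sequence context. The assay reads the 3′ ends of transcripts and did not measure promoters. The RefSeq table of promoters held an entry for 9 of the 10 factors and none for POU2AF1. Each sequence is the 250 bases before the annotated start on GRCh38.p14, 5′ to 3′ on the gene's strand. Capitals mark matches to the TATA element (TATAAA) or the GC box (GGGCGG), on either strand. SPIB lies on the plus strand (chr19:50418688-50418937), and POU2F2 (chr19:42132447-42132696) and PAX5 (chr9:37034269-37034518) on the minus strand.
SPIB: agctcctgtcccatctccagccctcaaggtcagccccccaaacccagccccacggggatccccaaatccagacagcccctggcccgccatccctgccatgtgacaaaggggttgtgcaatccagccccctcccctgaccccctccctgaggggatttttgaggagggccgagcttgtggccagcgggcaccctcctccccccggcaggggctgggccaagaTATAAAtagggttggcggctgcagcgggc
POU2F2: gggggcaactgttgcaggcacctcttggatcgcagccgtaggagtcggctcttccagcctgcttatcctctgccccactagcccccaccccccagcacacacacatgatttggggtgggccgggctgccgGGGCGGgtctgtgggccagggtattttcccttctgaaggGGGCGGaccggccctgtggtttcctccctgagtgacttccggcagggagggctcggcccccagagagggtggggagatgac
PAX5: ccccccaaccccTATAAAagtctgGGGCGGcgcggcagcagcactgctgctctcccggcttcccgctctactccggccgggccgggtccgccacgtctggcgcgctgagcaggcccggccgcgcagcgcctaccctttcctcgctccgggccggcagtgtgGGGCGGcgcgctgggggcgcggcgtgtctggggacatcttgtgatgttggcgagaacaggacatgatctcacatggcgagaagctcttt

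SPIB had a TATA element 29 bases before its start, a position where such elements are usual, and no GC box. POU2F2 had no TATA element and 2 GC boxes. PAX5 had its TATA element far upstream, at 238 bases, and 2 GC boxes. A TATA element was present in 10.7% and a GC box in 42.6% of the 35116 RefSeq promoter windows of this length. None of the 11 windows of the 9 factors held the octamer ATGCAAAT, which 1.63% of all windows held. An ETS-IRF composite element (GGAANNGAA, 6.58% of windows) was found at EBF1 alone. The 3 windows printed held no match to TCCCNNGGG (an EBF element, 7.84% of all windows), CAGGTG (an E-box, 17.5%) or TGANTCA (an AP-1 element, 6.57%). A match is a run of letters, not a binding site.

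The first comparison asks how the factors differ between knockdown and control cells without drug. POU2AF1 fell to 56.8% of its control level and SPIB rose to 129%. TCF3 and PAX5 fell slightly and BACH2 rose slightly, while POU2F2 and IRF4 did not pass the test. In all, 5 of the 9 tested factors passed (2 higher, 3 lower) at an adjusted p under 0.05, where 31.3% of all genes tested did. Their median change without regard to sign was 0.22 on the log2 scale, beside 0.20 over all genes tested, so the factors as a group did not stand apart in size. Without overlap between the DMSO groups, 2 factors were higher and 5 lower in knockdown libraries. Of all genes tested, 42.9% showed no overlap there, so a lack of overlap alone is common.

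POU2AF1 was measured at 26.2, 23.4 and 25.1 CPM in control DMSO libraries and at 14.0, 13.5 and 14.7 CPM in knockdown DMSO libraries. The groups did not overlap. Its log2 fold change was -0.82 (SE 0.11, adjusted p = 6.27e-07), larger in size than in 90.9% of genes tested. GENCODE annotates a pseudogene, AP002008.2, on the opposite strand over POU2AF1, with an exon overlap of 236 bases summed over exon pairs. The strand setting of the counts is not given, so reads of the pair within that overlap could not be told apart. The libraries under drug repeated the difference, at 23.7, 28.2 and 24.7 CPM in control and 14.0, 18.7 and 13.8 CPM in knockdown cells. All 3 knockdown libraries again lay below all 3 control libraries, with a fall of 0.71 (SE 0.12, adjusted p = 1.43e-05). In order of level the 2 knockdown groups overlapped each other at the bottom and the 2 control groups overlapped at the top.

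POU2F2, the DNA-binding partner of POU2AF1, did not follow it. It stood at 173, 178 and 165 CPM in control DMSO and at 176, 177 and 185 CPM in knockdown DMSO libraries, which overlapped. The knockdown effect was 0.06 (SE 0.05, adjusted p = 0.422) in DMSO and -0.01 (SE 0.05, adjusted p = 0.901) under drug, with an approximate 95% interval under drug from -0.12 to 0.10.

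SPIB was measured at 317, 310 and 308 CPM in control DMSO libraries and at 411, 400 and 391 CPM in knockdown DMSO libraries. It rose by 0.36 (SE 0.05, adjusted p = 4.49e-07) with no overlap. Under drug it stood at 293, 301 and 305 CPM in control and 385, 384 and 380 CPM in knockdown cells, a rise of 0.36 (SE 0.05, adjusted p = 8.16e-07). Every knockdown library thus lay above every control library in both treatments. GENCODE annotates another protein-coding gene, AC020909.1, on the same strand over SPIB, so the value is uncertain to the extent that they share reads. The order of levels, each group without overlap with the next, was control drug, control DMSO, knockdown drug and knockdown DMSO.

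**Figure D1:**
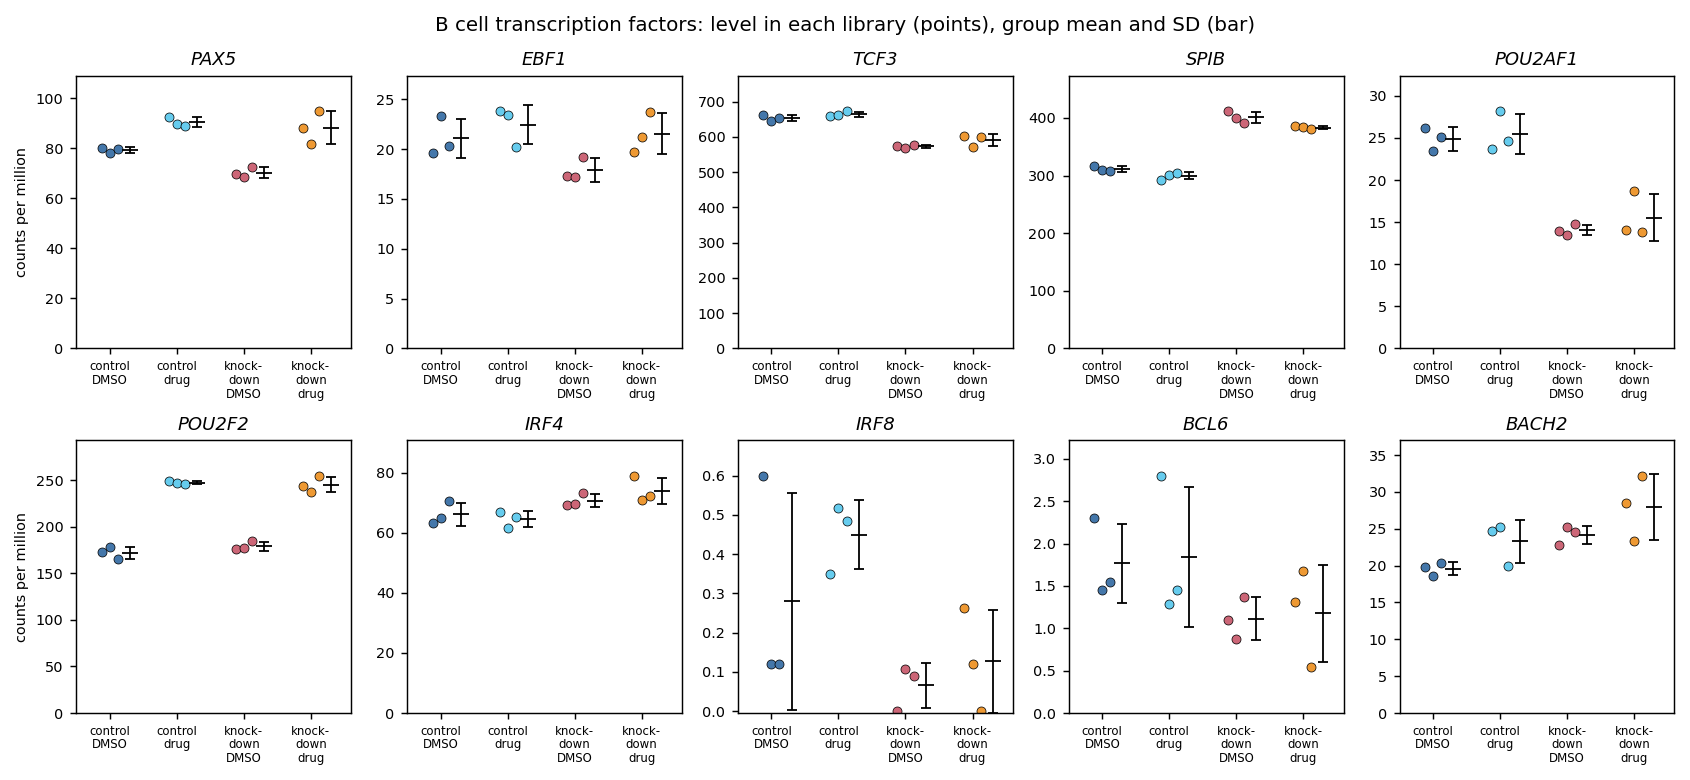
Level of each of the 10 factors in CPM (vertical axis, from 0 except for IRF8, whose SD reaches below 0) in the 12 libraries, by group (horizontal axis). Points are libraries, and the bar beside them is the group mean with its SD (n = 3). POU2AF1 and SPIB separate by shRNA, POU2F2 separates by drug, and IRF8 stays below 1 CPM.

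TCF3 changed little but with little scatter. Control DMSO libraries held 662, 645 and 654 CPM and knockdown DMSO libraries 575, 567 and 576 CPM, without overlap. The fall was 0.19 (SE 0.05, adjusted p = 0.00168). Under drug the levels were 658, 661 and 672 CPM in control and 602, 572 and 599 CPM in knockdown cells, and TCF3 fell by 0.17 (SE 0.05, adjusted p = 0.00543). This second call ended with library totals as the only scaling (-0.09, adjusted p = 0.154). That scaling put the median of all genes tested at 0.08 for this comparison, against 0.002 with the scaling used elsewhere here. Ribosomal RNA took 10.2% to 10.8% of counts in control drug and 7.20% to 8.98% in knockdown drug libraries, and its part in that change was not tested.

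PAX5 stood at 80.3, 78.0 and 79.9 CPM in control DMSO and at 69.9, 68.4 and 72.8 CPM in knockdown DMSO libraries. The groups did not overlap, and PAX5 fell by 0.17 (SE 0.06, adjusted p = 0.0407), which left 88.8% of the control level. The call was close to the threshold. It ended in 10 of 22 alternatives, with changes from -0.19 to -0.15 and adjusted p of up to 0.144, namely leaving out any 1 of the 6 DMSO libraries or knockdown drug replicate 1, library totals, no filter and the DESeq2 test. Under drug PAX5 had 92.7, 89.9 and 89.0 CPM in control and 88.2, 81.8 and 94.8 CPM in knockdown cells, which overlapped (-0.04, SE 0.06, adjusted p = 0.724).

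EBF1, the factor that acts upstream of PAX5, was measured at 19.6, 23.3 and 20.3 CPM in control DMSO and 17.3, 17.2 and 19.2 CPM in knockdown DMSO libraries. The knockdown libraries were all lower, but the difference of -0.22 (SE 0.10, adjusted p = 0.121) missed the threshold. Under drug the 2 groups overlapped, at 20.2 to 23.8 and 19.7 to 23.7 CPM (-0.05, SE 0.11, adjusted p = 0.750).

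BACH2 held 19.8, 18.6 and 20.3 CPM in control DMSO and 22.9, 25.2 and 24.5 CPM in knockdown DMSO libraries. It rose by 0.31 (SE 0.11, adjusted p = 0.0300) with no overlap. The call ended with the DESeq2 test (0.31, adjusted p = 0.0568) and without control DMSO replicate 1 (0.33, adjusted p = 0.0539), control DMSO replicate 2 (0.27, adjusted p = 0.108), knockdown DMSO replicate 2 (0.29, adjusted p = 0.0788) or the deep knockdown DMSO replicate 3 (0.30, adjusted p = 0.0779). Under drug BACH2 stood at 24.7, 25.2 and 19.9 CPM in control and 28.5, 23.3 and 32.2 CPM in knockdown cells. These libraries overlapped, and the change of 0.27 (SE 0.11, adjusted p = 0.0647) did not pass. It did pass without knockdown drug replicate 2 (0.39, adjusted p = 0.00977) and with library totals (0.35, adjusted p = 0.0179). With library totals the median of all genes tested was 0.08, against 0.002.

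IRF4, which drives plasma cell differentiation at high levels, stood at 63.2, 64.8 and 70.5 CPM in control DMSO and 69.3, 69.7 and 73.2 CPM in knockdown DMSO libraries. These overlapped (0.10, SE 0.07, adjusted p = 0.272). Under drug it held 66.8, 61.7 and 65.3 CPM in control and 78.9, 70.9 and 72.2 CPM in knockdown cells, and rose by 0.19 (SE 0.07, adjusted p = 0.0315) without overlap. The call ended with the DESeq2 test (adjusted p = 0.0510), without control drug replicate 2 (0.16, adjusted p = 0.132) and without knockdown drug replicate 1 (0.16, adjusted p = 0.135).

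BCL6 and IRF8, factors of the germinal centre stage, were near the limit of the assay in Z-138. BCL6 had 12 to 23 counts in control DMSO and 8 to 31 counts in knockdown DMSO libraries, the last in the deepest library. On the CPM scale these were 2.30, 1.45 and 1.55 against 1.09, 0.868 and 1.37, with every knockdown library lower. The difference of -0.61 (SE 0.38, adjusted p = 0.237) did not pass, nor did that under drug (-0.68, SE 0.41, adjusted p = 0.227), and the intervals reached from -1.37 to 0.16 and from -1.52 to 0.17. IRF8 had 6, 1 and 1 counts in control DMSO, 0, 1 and 2 in knockdown DMSO, 3, 4 and 4 in control drug and 2, 1 and 0 in knockdown drug libraries. IRF8 did not pass the low-count filter. With no filter its edgeR adjusted p was 0.145 for the knockdown in DMSO and 0.146 under drug, which missed the threshold, and a level of 0 in a library allows up to 3 counts.

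Under drug, 4 of 9 tested factors passed for the knockdown (2 higher, 2 lower), where 31.1% of all genes did. Without overlap 2 factors were higher and 2 lower, where 41.0% of all genes showed no overlap. POU2AF1, SPIB and TCF3 were called in both treatments, PAX5 and BACH2 in DMSO and IRF4 under drug. Without control drug replicate 1 the same 4 factors passed: POU2AF1 had -0.76, SPIB 0.34, TCF3 -0.17 and IRF4 0.22 (highest adjusted p = 0.0408). With library totals 3 were higher and 1 lower, since BACH2 passed and TCF3 did not.

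The drug comparisons ask how ibrutinib plus venetoclax moved the factors. POU2F2 rose in both populations and PAX5 passed in knockdown cells. In control cells 1 of 9 tested factors passed, where 1.29% of all genes did. In knockdown cells 2 of 9 passed, again beside 1.29% of all genes. Without overlap, 2 factors were higher and 1 lower under drug in control cells, beside 14.6% of all genes. In knockdown cells 3 were higher and 1 lower, beside 15.2%.

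POU2F2 went from 173, 178 and 165 CPM in DMSO to 249, 247 and 246 CPM under drug in control cells. It rose by 0.52 (SE 0.05, adjusted p = 5.23e-08), which is 144% of the DMSO level and a larger change than in 94.4% of genes. Without control drug replicate 1 the rise was 0.51 (adjusted p = 1.61e-06). In knockdown cells it went from 176, 177 and 185 to 244, 238 and 255 CPM and rose by 0.45 (SE 0.05, adjusted p = 1.03e-06). All drug libraries lay above all DMSO libraries in both populations, and within each treatment the shRNA groups overlapped.

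In knockdown cells PAX5 went from 69.9, 68.4 and 72.8 CPM to 88.2, 81.8 and 94.8 CPM and rose by 0.32 (SE 0.06, adjusted p = 0.00312). The drug libraries lay above the DMSO libraries. Without knockdown drug replicate 3, the highest of them, the change was 0.27 (adjusted p = 0.0504). In control cells the drug libraries also lay above the DMSO libraries, but the change of 0.19 (SE 0.06, adjusted p = 0.209) did not pass, nor did that without control drug replicate 1 (0.17, adjusted p = 0.538). The lowest PAX5 levels were those of knockdown DMSO, followed by control DMSO, each without overlap with the next, and the 2 drug groups overlapped at the top.

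The remaining 7 tested factors did not pass for the drug in either population. POU2AF1 had 0.03 (SE 0.11) in control and 0.13 (SE 0.12) in knockdown cells. SPIB had -0.06 (SE 0.05) and -0.07 (SE 0.05). BACH2 had 0.25 (SE 0.12, adjusted p = 0.456) and 0.21 (SE 0.10, adjusted p = 0.491), and EBF1 0.10 (SE 0.11) and 0.26 (SE 0.11, adjusted p = 0.344).

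**Figure D2:**
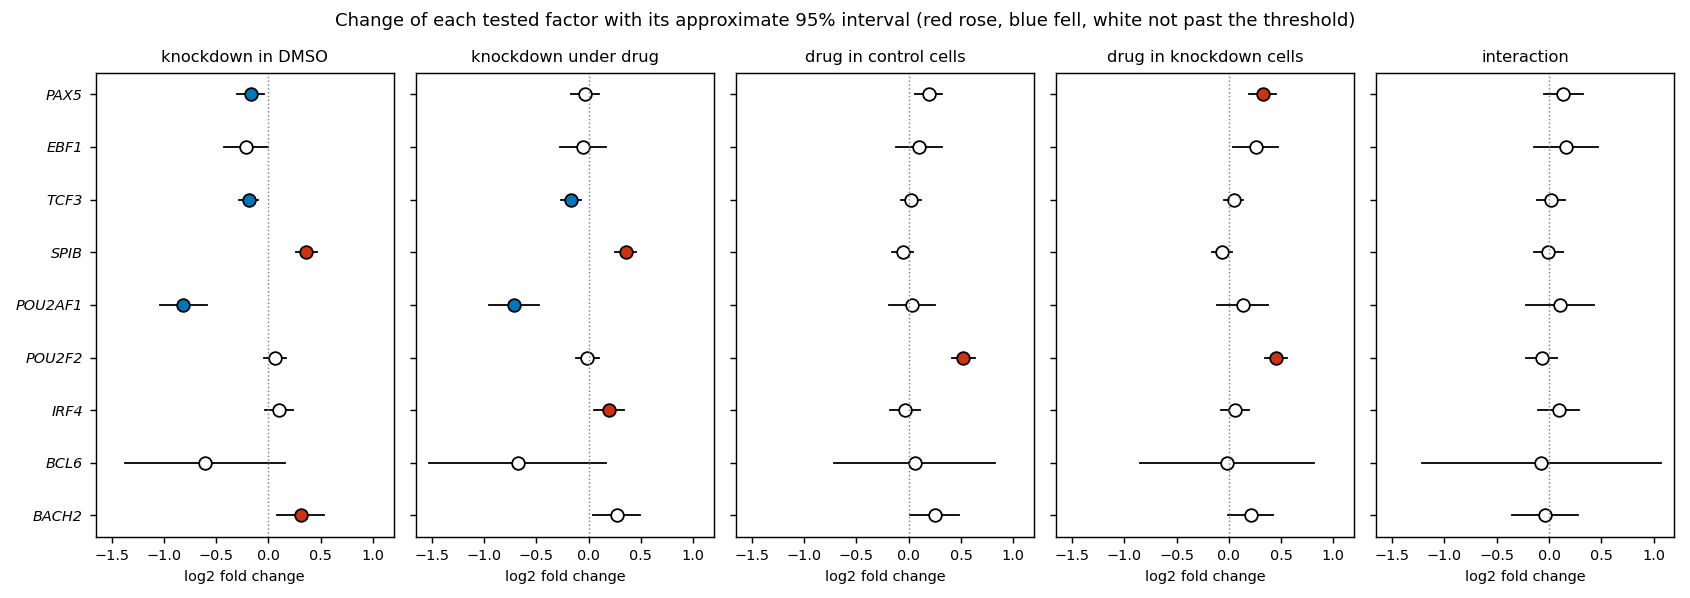
Log2 fold change of the 9 tested factors (horizontal axis) with approximate 95% intervals in the 4 pairwise comparisons and the interaction. Red points rose, blue points fell and white points did not pass the threshold. POU2AF1 is the farthest from 0 among the called factors for the knockdown and POU2F2 for the drug.

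The interaction asks whether the drug response of each factor depended on the shRNA, and a value above 0 is a stronger rise in knockdown cells. By edgeR, 0 of 9 factors passed, and 0 had an unadjusted p under 0.05. The DESeq2 and limma-voom tests also called 0. Of all genes tested, 0.0238% passed. PAX5, called for the drug in knockdown cells alone, had a difference of 0.14 (95% interval -0.05 to 0.32, adjusted p = 0.949), so the responses of the 2 populations were not shown to differ. The interval was -0.22 to 0.08 for POU2F2, -0.15 to 0.13 for SPIB and -0.22 to 0.43 for POU2AF1. These bounds also limit how far the knockdown effect on each factor could differ between DMSO and drug.

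Most tested B cell genes that PAX5, EBF1 or TCF3 are known to activate differed between knockdown and control cells. Of 17 genes listed, 10 were tested, and 8 passed in DMSO (6 lower, 2 higher), where 31.3% of all genes did. Genes said here to rise or fall passed the same threshold. VPREB3 fell by 1.85 on the log2 scale (SE 0.16). MS4A1, which encodes CD20, fell by 1.36 (SE 0.06), and CD79B, a signalling chain of the receptor, fell by 0.84 (SE 0.08). The 2 genes called higher were CIITA, which rose by 0.54 (SE 0.06), and IGLL1, which rose by 0.26 (SE 0.06). Mean IGLL1 was 279 CPM in control DMSO and 335 CPM in knockdown DMSO, and mean VPREB3 was 13.6 and 3.81 CPM. CIITA and IGLL1 were picked for mention after their values were seen. The list's median was -0.74, beside 0.004 over all genes tested. Under drug 8 passed (6 lower, 2 higher), beside 31.1% of all genes, and VPREB3 fell by 2.27 (SE 0.19) and MS4A1 fell by 1.49 (SE 0.06).

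Among the E protein inhibitors, which bind TCF3 and its relatives and keep them off DNA, all 3 tested of 4 listed fell in DMSO, with a median of -0.94, where 31.3% of all genes passed. ID2 fell by 1.02 (SE 0.10), from 47.5 ± 4.93 to 22.6 ± 4.14 CPM (SD, n = 3). ID3 fell by 0.44 (SE 0.08) and ID1 by 0.94 (SE 0.26). Under drug ID2 and ID3 fell, by 1.05 (SE 0.10) and 0.56 (SE 0.08). ID1 had few counts, 18 to 67 in knockdown DMSO libraries, and fell with the drug in control cells by 1.33 (SE 0.30, adjusted p = 0.0121). Without control drug replicate 1 it did not pass (-1.18, adjusted p = 0.102).

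Relatives within the factors' families were tested for 11 of 16 genes, and 6 passed in DMSO (5 lower, 1 higher), with a median of -0.02, where 31.3% of all genes passed. SPI1, the ETS factor closest to SPIB, fell by 3.46 (SE 0.40), from 25 to 38 counts per control DMSO library to 3 to 6 per knockdown DMSO library. Under drug it had 26 to 33 counts per control library and 1 per knockdown library. Thus SPIB rose where SPI1 fell. The interferon regulatory factors IRF1, IRF5 and IRF7 fell by 0.83 (SE 0.08), 0.81 (SE 0.09) and 0.98 (SE 0.15), while IRF4 did not pass in DMSO. Nor did IRF2, IRF3 and IRF9, at 0.29 (SE 0.11), -0.01 (SE 0.10) and 0.55 (SE 0.32). Under drug IRF9 rose by 1.30 (SE 0.39), with only 6 to 7 counts per control library. POU2F1, the broadly expressed relative of POU2F2 and the 1 member of the list called higher in DMSO, rose there by 0.37 (SE 0.07). POU2F1, IRF2, IRF3 and IRF9 were picked for mention after their values were seen. Under drug 7 relatives passed (5 lower, 2 higher), beside 31.1% of all genes.

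Plasma cell genes that PAX5, BCL6 or BACH2 restrain split in direction. Of 8 tested of 11 listed, 5 passed in DMSO (2 higher, 3 lower) and 6 under drug (2 higher, 4 lower), beside 31.3% and 31.1% of all genes. The median in DMSO was -0.09. PRDM1 rose from 7.79 ± 0.911 to 17.9 ± 1.57 CPM (SD, n = 3), by 1.22 (SE 0.13), and SDC1, which encodes CD138, rose by 1.96 (SE 0.11). IGJ, the immunoglobulin joining chain gene, fell by 0.82 (SE 0.05) and MZB1, an antibody secretion chaperone, by 0.28 (SE 0.06). XBP1, the secretory pathway regulator, had 0.02 (SE 0.08, adjusted p = 0.898) for the knockdown in DMSO. It rose with the drug, by 0.49 (SE 0.08) in control and 0.35 (SE 0.08) in knockdown cells.

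**Figure D3:**
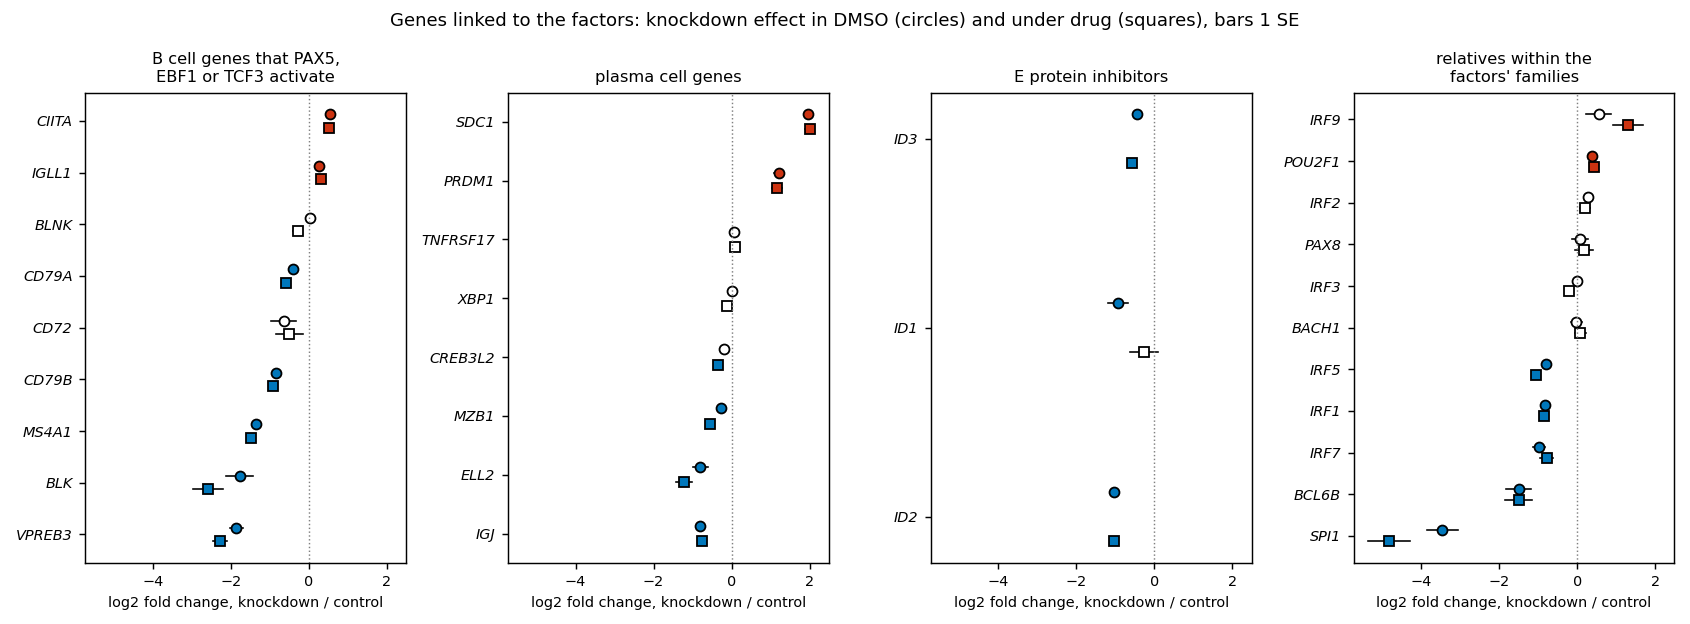
Knockdown effect as log2 fold change (horizontal axis, bars 1 SE) on genes linked to the factors, in DMSO (circles) and under drug (squares). Red rose, blue fell and white did not pass. SPI1 lies lowest of the genes shown (its value under drug rests on 1 count per knockdown library and depends on the prior count), and SDC1 and PRDM1 lie highest in the plasma cell panel.

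Other transcription factors of the B lineage also moved in both directions. Of 18 tested of 19 listed, 10 passed in DMSO (6 higher, 4 lower) and 11 under drug (5 higher, 6 lower), beside 31.3% and 31.1% of all genes. The median in DMSO was 0.07. LEF1 rose by 0.98 (SE 0.07) and TCF4, an E protein like TCF3, rose by 0.51 (SE 0.05). RUNX3 fell by 0.65 (SE 0.05) and FOXO1, a partner of EBF1 in early B cells, by 1.33 (SE 0.14). For the drug, ETS1 rose in control cells by 0.36 (SE 0.08, adjusted p = 0.00539), with an interaction of -0.37 (adjusted p = 0.464), and KLF2 fell in knockdown cells by 0.72 (SE 0.15, adjusted p = 0.00474), with an interaction of -0.46 (adjusted p = 0.914). Outside this list, the CD20 gene MS4A1 rose with the drug in control cells by 0.31 (SE 0.05, adjusted p = 0.000679).

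The genes most like POU2AF1, SPIB and BACH2 over the 12 libraries were found by the root mean square difference of log2 CPM, each gene centred on its mean, among 8183 genes whose log2 CPM averaged 3 or more. LIMD2 (0.10) and RASGRP2 (0.11) were nearest to POU2AF1, whose own deviation from its mean was 0.40. LINC00657 (0.04) and CCDC50 (0.05) were nearest to SPIB, with an own deviation of 0.18. PER2 and KLHL12 were nearest to BACH2, at 0.10 each beside an own deviation of 0.22, a weaker likeness.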

How the data were processed

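RNA was measured in 12 libraries made with the Lexogen QuantSeq kit, per the labels' protocols. The authors deposited raw counts per gene with no normalization. The build hg19 and the tools HISAT2, HTSeq and bcl2fastq 2.17.1.14 are listed, per the submitters' processing notes. Strand setting and annotation release: not given in the sources used here, so reads of antisense genes annotated over PAX5, POU2AF1, BCL6 and BACH2 could not be told apart from theirs.

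Genes were kept by filterByExpr (minimum count 10, minimum total 15), which removed 1218. All groups entered 1 quasi-likelihood model in edgeR 4.0.16 (R 4.3.3) with TMM scaling, and p-values from its F tests received the Benjamini-Hochberg adjustment across the 12602 genes. CPM are counts scaled to the TMM-adjusted library size. Standard errors (log2 fold change over the root of F) and 95% intervals are approximate. The script was tested on simulated data. Alternatives included DESeq2 1.42.0 and limma-voom (limma 3.58.1).

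The factors and gene lists were chosen with earlier results of these data known. Every factor is named. From each list come up to 4 genes with the smallest adjusted p for the knockdown in DMSO, and those called for the drug. Some of these genes are not reported here. Motifs and the 3 promoters were picked after the values were seen.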

Additional observations from a re-analysis of the deposited data

How the results depend on the processing

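Across the 22 alternatives, 954 values of single factors kept their side of the threshold, 20 lost it and 2 gained it, and none that was called changed direction. POU2AF1 and SPIB for the knockdown, TCF3 for the knockdown in DMSO and POU2F2 for the drug passed in all 22. For the knockdown in DMSO, 3 factors passed with the DESeq2 test and 3 to 5 without 1 library. Over all genes 3362 and 3218 to 4094 passed in those settings, against 3940. For the drug in knockdown cells 1 to 2 factors passed without 1 library. Under drug the knockdown counts were 3 factors with the DESeq2 test and 3 to 5 without 1 library. Over all genes they were 3407 and 3312 to 3954, against 3919. With the replicate block 5, 4, 1, 2 and 0 factors passed in the 5 comparisons, and over all genes 3822, 3827, 150, 147 and 2. Whether the replicate numbers pair the libraries was not settled. Same-numbered libraries correlated in their deviations at r from -0.11 to 0.09 and different-numbered ones at -0.10 to 0.09. Not every library correlated best with its own number. Between the 2 DMSO groups, r was 0.02 to 0.09 for the same number and -0.10 to 0.02 for different numbers. Over all genes, the drug calls in control cells numbered 163, and 106 to 176 without 1 library (lowest without control drug replicate 1). In knockdown cells they numbered 162, and 100 to 181 without 1 library, lowest without the deepest library, with 102 without knockdown drug replicate 1. The interaction called 3 genes, 1 with a filter at 5 CPM, 0 with ribosomal RNA taken out and 1 to 3 without 1 library. With library totals, 2691 genes were higher and 1447 lower for the knockdown under drug, against 1860 and 2059. For the drug they were 74 higher and 85 lower in control cells, against 93 and 70, and 132 and 53 in knockdown cells, against 93 and 69. The cause was not tested. Leaving out the library without a treatment in its name or the deepest library was also run on the gene lists, a choice made after the data were seen. It moved a count by over 1.5 times for the BACH2 and BCL6 partner lists alone. Depth limits BCL6 and IRF8.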

Other observations

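Genes linked to the germinal centre stage were tested for 5 of 12 listed. For the knockdown 4 passed in DMSO (3 lower, 1 higher) and 4 under drug (3 lower, 1 higher), with a median of -1.38 in DMSO. The list did not separate genes high at that stage from genes low there. Its counts and median therefore give no direction for the stage. Of all genes tested, 31.3% and 31.1% passed. In DMSO GCSAM, a germinal centre signalling adaptor, fell by 3.01 on the log2 scale (SE 0.36), the chemokine receptor gene CCR7 by 1.38 (SE 0.10) and CD38 by 1.39 (SE 0.21). S1PR1, a receptor that guides lymphocytes out of lymphoid tissue, rose by 1.59 (SE 0.19). BCL6 itself had under 3 CPM in every library.

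Among 9 tested BCL6 corepressors and partners, with a median of -0.02 for the knockdown in DMSO, 1 passed (lower), beside 31.3% of all genes. Without the deepest library 0 passed. Of those that did not pass, CTBP1 had -0.13 (SE 0.05, adjusted p = 0.0532) and TBL1XR1 had -0.14 (SE 0.06, adjusted p = 0.0747). Of 6 tested BACH2 partners and targets, with a median of 0.07, 3 passed in DMSO (2 higher, 1 lower), beside 31.3% of all genes. Without the deepest library 1 of them passed, and over all genes 3218 did, against 3940. HMOX1, a heme-degrading enzyme and BACH2 target, rose by 0.93 (SE 0.22) and NFE2L2, which encodes NRF2, by 0.25 (SE 0.09), while BACH2 also rose. Under drug 1 gene of the list passed, beside 31.1% of all genes, and this was HMOX1, which rose by 0.97 (SE 0.26). Without control drug replicate 1 it had 0.70 (adjusted p = 0.0517), and no gene of the list passed.

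Markers of the lymphoma split for the knockdown in DMSO. SOX11 rose by 0.92 (SE 0.05) and CCND1, which encodes cyclin D1, fell by 0.33 (SE 0.06). Of the other cell type markers, CD3G fell by 3.28 (SE 0.18), CD4 by 2.34 (SE 0.45) and COL1A1 by 0.50 (SE 0.10). CD74, a B cell marker and the class II invariant chain, fell by 0.34 (SE 0.05). VIM had -0.09 (SE 0.06, adjusted p = 0.323).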
